A study of Mus musculus with 28 samples.

Results

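Glucose breakdown and the hypoxia response were followed through 32 genes in cultured mouse macrophages that lack Irgm1. The genes were chosen by symbol, with earlier results of these data known. Their counts beside the share of all genes called are therefore a description, not a test. Of the 32, 22 encode glycolytic enzymes, their regulators and the transporters of glucose and lactate. A further 10 encode parts of the oxygen sensor or other known hypoxia targets. All 32 passed the filter on low counts in both experiments, among 13998 tested genes in experiment 1 and 15429 in experiment 2. Bone marrow cells from tibia and femur of male and female mice aged 2 to 4 months were grown for 6 days in medium with 20% L929-conditioned medium, a source of macrophage growth factor, and kept without it for another 24 h. Experiment 1 held 4 libraries each of wild-type (WT), Irgm1-/- (Irgm1-KO) and doubly deficient IFNAR/Irgm1-/- (Irgm_IFNAR-KO) macrophages, read with 100 cycles, and asked what Irgm1 loss changes and how far that depends on type I interferon. Experiment 2 held 4 libraries each of WT_control, WT_fenofibrate, Irgm1KO_control and Irgm1KO_fenofibrate, read with 50 cycles. Fenofibrate, a lipid-lowering drug whose active form binds the nuclear receptor PPAR-alpha, was used at 50 µM. Both knockout lines were backcrossed to C57BL/6, the strain of the wild-type mice. No group lacked IFNAR alone, so the receptor's loss was seen only on top of Irgm1 loss. The sources used here do not give what the control cells of experiment 2 received, or for how long fenofibrate was present. Nor do the labels say that the 4 libraries of a group came from separate mice, so the tests measure the spread between these libraries.

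Irgm1 belongs to the immunity-related GTPases, which interferons induce. IFNAR is the receptor of the type I interferons. Glycolysis turns glucose into pyruvate, which macrophages either reduce to lactate and export or pass to the mitochondria, and inflammatory activation of macrophages is known to raise it. The hypoxia-inducible factor HIF is the main transcriptional activator of this pathway at low oxygen. With oxygen present, the prolyl hydroxylases encoded by Egln1 and Egln3 mark its alpha subunit, the product of Hif1a, for destruction. HIF in turn switches on Egln1 and Egln3, so these genes are both brakes on HIF and reporters of its activity. HIF is controlled largely at the protein level, so a change in Hif1a RNA says little about HIF activity.

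Libraries held 48652844 to 70455339 counts in experiment 1 and 82362311 to 120844616 counts in experiment 2. All levels below are in CPM, counts scaled to a common library total with TMM normalization, and libraries of a group are listed in the order of replicates 1 to 4. Irgm1 itself measured 1290, 1190, 1340 and 1350 CPM in WT, 798, 839, 628 and 776 in Irgm1-KO and 786, 665, 772 and 641 in Irgm_IFNAR-KO. In experiment 2 Irgm1 measured 1670, 1510, 1650 and 1580 in WT_control, 1670, 1470, 1630 and 1580 in WT_fenofibrate, 1010, 1040, 1030 and 991 in Irgm1KO_control and 1020, 1140, 1090 and 1050 in Irgm1KO_fenofibrate. Every deficient library was below every wild-type library of its experiment, with log2 fold changes of -0.77 (SE 0.102, adjusted p = 8.32e-05) and -0.65 (SE 0.0542, adjusted p = 5.26e-08) for the untreated pairs. Ifnar1, which encodes a receptor chain, measured 139, 128, 137 and 141 in WT, 127, 125, 112 and 120 in Irgm1-KO and 114, 109, 53.1 and 108 in Irgm_IFNAR-KO. Its fall against WT did not pass the test, -0.50 (adjusted p = 0.119), and replicate 3 of the double knockout stood far below the other 3. Reads outside a deleted part still count for both genes, so these levels are a limited check of the labels. In experiment 2 Ifnar1 measured 130, 148, 134 and 133 in WT_control, 99.4, 108, 102 and 95 in WT_fenofibrate, 127, 126, 129 and 128 in Irgm1KO_control and 108, 95.1, 101 and 111 in Irgm1KO_fenofibrate.

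In Irgm1-KO against WT, 1 of the 8 macrophage markers was called higher, 3 were called lower and 4 were not called, with a median log2 fold change of -0.221. Over all genes 19.8% were called higher and 20.7% lower. All 8 macrophage markers were present in every group, and their summed level, mostly Lyz2, was 21200 to 41500 CPM in WT, 9430 to 14600 in Irgm1-KO and 28700 to 40000 in Irgm_IFNAR-KO. It was 22100 to 30700 in WT_control, 13900 to 22500 in WT_fenofibrate, 10500 to 12700 in Irgm1KO_control and 15000 to 18400 in Irgm1KO_fenofibrate. The 6 proliferation genes summed to 277 to 390 CPM in WT, 73.8 to 97.1 in Irgm1-KO and 117 to 179 in Irgm_IFNAR-KO. In experiment 2 they summed to 524 to 722 in WT_control, 491 to 792 in WT_fenofibrate, 266 to 312 in Irgm1KO_control and 667 to 961 in Irgm1KO_fenofibrate. The 3 endothelial markers, mostly Kdr, summed to 22.8 to 32.7 CPM in WT, 113 to 199 in Irgm1-KO and 10.2 to 15.2 in Irgm_IFNAR-KO. They summed to 131 to 224 in Irgm1KO_control and to 32 to 48.9 across the other groups of experiment 2. The 3 did not move together, with 2 called higher and 1 lower in Irgm1-KO against WT, at log2 fold changes from -1.91 to 3.31. Neutrophil markers summed to at most 38.6 CPM and dendritic markers to at most 5.81 in any library. The part of these shifts in the results below was not tested, and in bulk RNA fewer cells of a type cannot be told apart from less RNA per cell. Within groups, 1 axis held 53.8% of the variance in experiment 1, with WT replicate 2, Irgm1-KO replicate 3 and Irgm_IFNAR-KO replicate 4 at its far end. Calls that end or appear without the farthest library of each group on this axis are given beside the gene. Xist was at most 1.78 CPM in replicates 2 and 4 of both wild-type groups and in replicate 3 of both Irgm1-deficient groups of experiment 2. In the other libraries of experiment 2 it was at least 50.2 CPM. In experiment 1 every library held Xist, from 50.8 CPM in WT replicate 2 to 231 in WT replicate 1. WT replicate 2, Irgm1-KO replicate 3 (97.9 CPM) and Irgm_IFNAR-KO replicate 4 (97.2 CPM) each had the lowest Xist of their group. The Xist covariate of experiment 1 thus partly follows the within-group axis, and its calls cannot be read as an adjustment for sex alone.

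The 32 genes took 0.687 to 0.757% of all counts in WT, 0.921 to 1.08% in Irgm1-KO and 0.841 to 0.923% in Irgm_IFNAR-KO. The share was 0.702 to 0.796% in WT_control, 0.812 to 1.01% in WT_fenofibrate, 1.05 to 1.08% in Irgm1KO_control and 1.13 to 1.39% in Irgm1KO_fenofibrate. Each deficient group was thus above the wild-type group of its experiment and treatment in this summed share, without overlap. Per kilobase of exon, the most abundant of these RNAs in WT was Aldoa at 341 CPM per kb, followed by Hk3 at 283, Pkm at 237, Ldha at 189 and Gapdh at 170. Exon length here merges all annotated transcripts of a gene, and this order depends on it. Without division by length the WT means were 1184 CPM for Pkm, 1041 for Hk3, 993.5 for Aldoa, 700.8 for Gapdh and 625.9 for Ldha. The least abundant were Egln3 at 0.253, P4ha2 at 0.54 and Ankrd37 at 0.674 CPM per kb. The plot of levels by library shows all 28 values for the genes with the clearest contrasts.

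**Figure D1:**
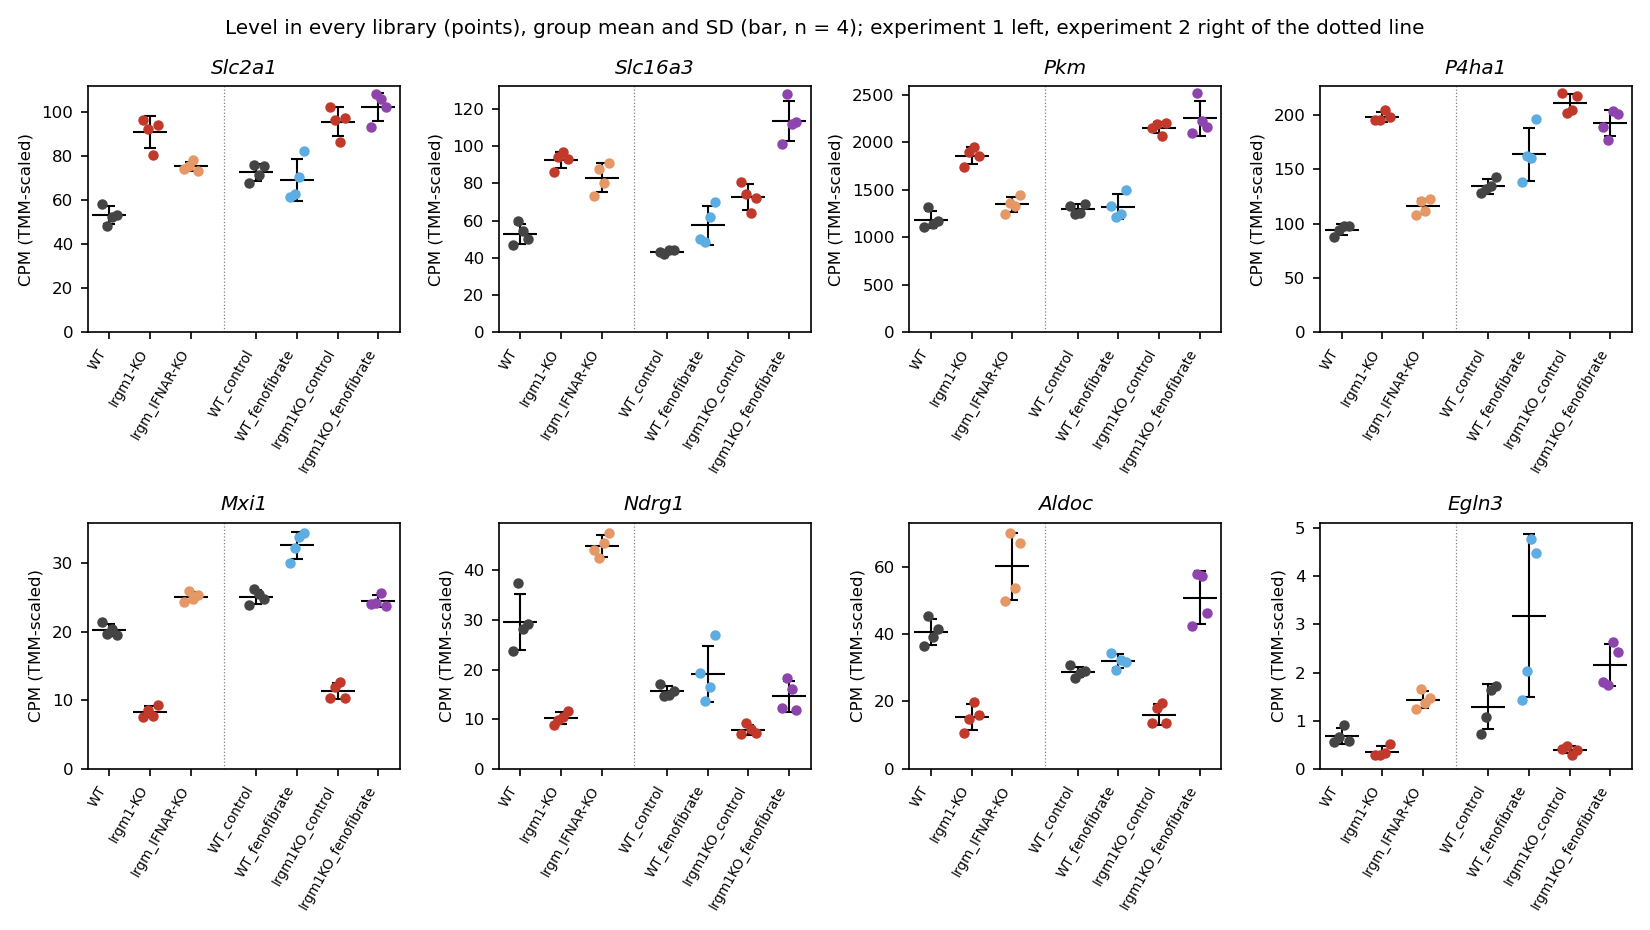
Levels of selected genes in each of the 28 libraries (CPM, linear axis), by group. Each point is 1 library, and each bar shows the group mean and SD. Mxi1 at 7.62 to 9.35 CPM in Irgm1-KO lies apart from 19.6 to 21.4 in WT, while P4ha1 at 195 to 205 in Irgm1-KO lies above 87.5 to 98.3 in WT.

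Loss of Irgm1 moved most of these genes, and in 2 directions. In experiment 1, 18 of the 32 rose and 7 fell in Irgm1-KO against WT, where edgeR's quasi-likelihood test called 19.8% of all genes higher and 20.7% lower at an adjusted p of 0.05. In experiment 2, 18 rose and 9 fell in Irgm1KO_control against WT_control, where 27.3% of all genes were called higher and 26.1% lower. Sizes of change are log2 fold changes throughout, each given with its standard error (SE) or adjusted p. The median of the 32 was 0.369 and 0.19, against -0.0188 and 0.00346 over all genes tested. The 2 experiments share no library. Of the 18 genes called higher in each, 14 were called in both, 77.8% of each list. All 7 called lower in experiment 1 were also called lower in experiment 2, 100% of the first list and 77.8% of the second. Across the 32 genes the 2 sets of fold changes gave Pearson's r = 0.804 and Spearman's rho = 0.706, a description over genes, which are not independent replicates. The sign was the same for 27 of 32. Among the 22 glycolytic genes and transporters 14 rose and 3 fell in experiment 1, with a median of 0.492, and 16 rose and 3 fell in experiment 2, with a median of 0.388. Among the 10 oxygen-sensing genes and other hypoxia targets 4 rose and 4 fell, with a median of 0.028, and then 2 rose and 6 fell, with a median of -0.275.

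**Figure D2:**
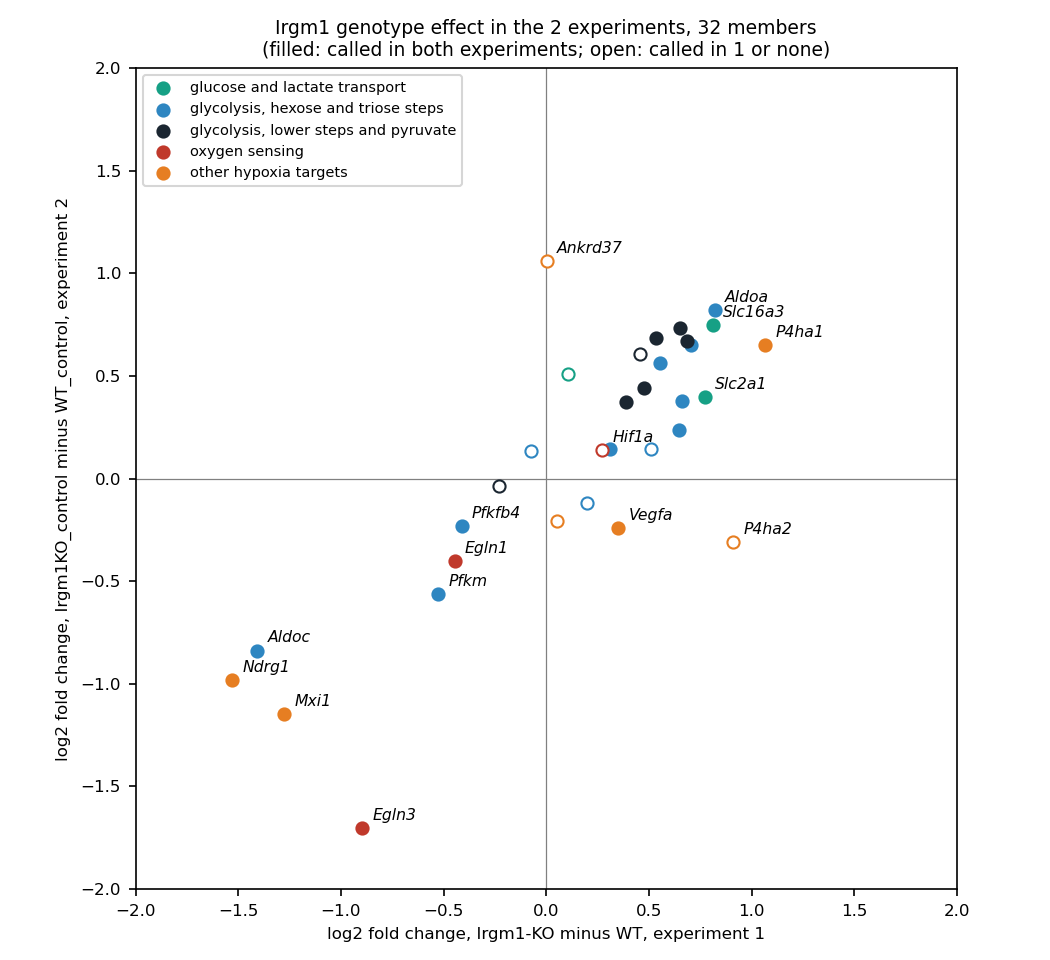
Log2 fold change of Irgm1-deficient over wild-type macrophages for the 32 genes, experiment 1 on the horizontal axis and experiment 2 on the vertical axis. Filled points were called in both experiments, and open points were not. Most glycolytic genes lie in the upper right, and Pfkm, Pfkfb4, Aldoc, Egln1, Egln3, Ndrg1 and Mxi1 lie in the lower left.

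Of the 3 transporter genes, 2 rose with Irgm1 loss in experiment 1 and 3 in experiment 2. Slc2a1, which encodes the glucose transporter GLUT1, measured 58.4, 48.4, 52.5 and 53.1 CPM in WT and 96.3, 92.3, 80.2 and 94.2 in Irgm1-KO. Slc2a1 then measured 67.6, 76, 71.4 and 75.4 in WT_control and 102, 96.5, 86.4 and 97.1 in Irgm1KO_control. The groups did not overlap in either experiment, with log2 fold changes of 0.77 (SE 0.0797, adjusted p = 9.59e-06) and 0.40 (SE 0.082, adjusted p = 0.000628). Slc16a3, which encodes the lactate exporter MCT4, measured 47.1, 59.8, 54.4 and 50 in WT and 86.2, 94.1, 96.9 and 93.2 in Irgm1-KO. Slc16a3 measured 43.1, 42, 44.2 and 44.3 in WT_control and 80.7, 74.3, 63.9 and 72.4 in Irgm1KO_control. Again no deficient library reached down to a wild-type one, and the log2 fold changes were 0.81 (SE 0.0932, adjusted p = 2.46e-05) and 0.75 (SE 0.105, adjusted p = 1.77e-05). Slc16a1 encodes MCT1, a lactate carrier of both directions, and was the scarcer of the pair. Slc16a1 measured 5.72, 5.58, 5.05 and 6.04 in WT and 5.84, 6.79, 4.96 and 6.55 in Irgm1-KO, with overlapping groups and a difference of 0.11 (adjusted p = 0.472). In experiment 2 Slc16a1 measured 11.3, 11.1, 9.51 and 12.1 in WT_control and 13.9, 16.6, 16.7 and 15.3 in Irgm1KO_control and rose by 0.51 (SE 0.125, adjusted p = 0.0026).

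The hexokinases phosphorylate glucose as it enters the cell, and Hk3 was by far the most abundant of the 3 in these macrophages. Hk1 measured 259, 165, 220 and 220 CPM in WT and 362, 381, 274 and 351 in Irgm1-KO. Hk1 measured 289, 255, 306 and 288 in WT_control and 382, 376, 349 and 373 in Irgm1KO_control. Hk1 rose without overlap in both, by 0.66 (SE 0.141, adjusted p = 0.00253) and 0.38 (SE 0.0707, adjusted p = 0.000245) on the log2 scale. Hk3 measured 1110, 940, 1030 and 1080 in WT and 1330, 1390, 1110 and 1340 in Irgm1-KO. Hk3 measured 1320, 1270, 1300 and 1360 in WT_control and 1420, 1420, 1400 and 1570 in Irgm1KO_control. Its rises were smaller, 0.31 (SE 0.0833, adjusted p = 0.00991) with groups that touched at 1 library and 0.15 (SE 0.0565, adjusted p = 0.0393). Hk2, the hexokinase best known as a hypoxia target, measured 98.7, 57.2, 77.6 and 74.5 in WT and 97.7, 97.7, 66.4 and 91.5 in Irgm1-KO. Hk2 measured 142, 169, 142 and 168 in WT_control and 138, 149, 147 and 139 in Irgm1KO_control. The Hk2 groups overlapped in both experiments, with log2 fold changes of 0.20 (adjusted p = 0.427) and -0.12 (adjusted p = 0.234). The experiment 2 call of Hk3 ended without WT_control replicate 1, 2 or 3, or Irgm1KO_control replicate 1 or 4 (adjusted p 0.0508 to 0.123), with no filter on low counts (0.106) and with log2 Xist CPM as a covariate (0.0536).

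Gpi1, the isomerase that follows hexokinase, measured 406, 472, 443 and 440 CPM in WT and 393, 437, 423 and 421 in Irgm1-KO, with overlapping groups and a difference of -0.07 (adjusted p = 0.459). In experiment 2 Gpi1 measured 416, 424, 429 and 433 in WT_control and 466, 477, 453 and 474 in Irgm1KO_control, a small rise without overlap of 0.14 (SE 0.0494, adjusted p = 0.0286). Without WT_control replicate 1, or Irgm1KO_control replicate 1 or 2 that Gpi1 call ended (adjusted p 0.0508 to 0.058), as it did with no filter on low counts (0.109). The phosphofructokinase isoforms, which catalyse the committed step, split. Pfkl, the liver-type isoform, measured 50.7, 42.4, 50.6 and 52.4 in WT and 72.7, 84.8, 71.4 and 77.8 in Irgm1-KO. Pfkl measured 59.1, 63.3, 64.5 and 64.9 in WT_control and 76.3, 71.8, 71.8 and 76.2 in Irgm1KO_control. Pfkl rose by 0.65 (SE 0.0881, adjusted p = 9.12e-05) and 0.23 (SE 0.0743, adjusted p = 0.0136), without overlap. Pfkp, the platelet-type isoform, measured 230, 224, 256 and 244 in WT and 342, 366, 330 and 361 in Irgm1-KO. Pfkp measured 269, 233, 279 and 258 in WT_control and 380, 385, 384 and 385 in Irgm1KO_control. Pfkp rose by nearly the same amount in both, 0.55 (SE 0.0704, adjusted p = 5.37e-05) and 0.56 (SE 0.0687, adjusted p = 3.65e-06). Pfkm, the muscle-type isoform, measured 34.2, 29.3, 35.3 and 35.4 in WT and 21.8, 24.2, 21.8 and 25.2 in Irgm1-KO. Pfkm measured 31.2, 31.8, 31.3 and 28.2 in WT_control and 21.3, 18.6, 20.6 and 22.4 in Irgm1KO_control. Pfkm fell in both without overlap, with log2 fold changes of -0.53 (SE 0.08, adjusted p = 0.000205) and -0.56 (SE 0.0904, adjusted p = 5.98e-05).

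Pfkfb3 and Pfkfb4 encode bifunctional enzymes that make and break fructose 2,6-bisphosphate, the main allosteric activator of phosphofructokinase. Pfkfb3 measured 164, 105, 129 and 140 CPM in WT and 210, 215, 138 and 201 in Irgm1-KO. Pfkfb3 measured 179, 198, 181 and 165 in WT_control and 201, 188, 199 and 211 in Irgm1KO_control. Pfkfb3 rose by 0.51 (SE 0.166, adjusted p = 0.0285) in experiment 1, with overlapping libraries, and differed by 0.14 (adjusted p = 0.07) in experiment 2. Pfkfb4 measured 44.2, 42.1, 46.6 and 43.2 in WT and 32.6, 32.6, 33.8 and 33.2 in Irgm1-KO. Pfkfb4 measured 34.3, 37.1, 35.8 and 30.5 in WT_control and 29.1, 29.3, 28.2 and 30.5 in Irgm1KO_control. Pfkfb4 fell, with log2 fold changes of -0.41 (SE 0.0598, adjusted p = 0.000147) without overlap and -0.23 (SE 0.0856, adjusted p = 0.0301) with 1 shared value at 30.5. The experiment 1 call of Pfkfb3 ended without WT replicate 2, 3 or 4, or Irgm1-KO replicate 1, 2 or 4 (adjusted p 0.052 to 0.0795) and with scaling by library totals only (0.0508). In experiment 2 Pfkfb3 passed the test with library totals only, 0.197 (adjusted p = 0.0127), and without the farthest library of each group, 0.191 (0.0188). The experiment 2 call of Pfkfb4 ended without WT_control replicate 1, 2 or 3, or Irgm1KO_control replicate 1, 2 or 3 (adjusted p 0.0519 to 0.0863), with library totals only (0.0731) and without the farthest library of each group (0.16).

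The aldolases split fructose bisphosphate into trioses, and their isoforms moved apart. Aldoa, the general isoform, measured 879, 1150, 994 and 951 CPM in WT and 1640, 1760, 1880 and 1740 in Irgm1-KO. Aldoa measured 944, 858, 997 and 988 in WT_control and 1700, 1690, 1590 and 1710 in Irgm1KO_control. Aldoa rose equally in both, by 0.82 (SE 0.103, adjusted p = 5.14e-05) and 0.82 (SE 0.0874, adjusted p = 8.35e-07), and no groups overlapped. Aldoc, the isoform known from brain and a hypoxia target, measured 36.5, 45.4, 39 and 41.6 in WT and 10.5, 14.8, 19.8 and 16 in Irgm1-KO. Aldoc measured 30.7, 27.1, 28.5 and 29.1 in WT_control and 13.5, 18, 19.4 and 13.6 in Irgm1KO_control. Aldoc fell far below wild type in both, with log2 fold changes of -1.41 (SE 0.176, adjusted p = 4.95e-05) and -0.84 (SE 0.12, adjusted p = 2.33e-05). Tpi1 interconverts the trioses. Tpi1 measured 280, 442, 390 and 360 in WT and 508, 569, 713 and 612 in Irgm1-KO. Tpi1 measured 311, 287, 319 and 298 in WT_control and 475, 481, 465 and 485 in Irgm1KO_control. Tpi1 rose by 0.71 (SE 0.16, adjusted p = 0.00381) and 0.65 (SE 0.0723, adjusted p = 1.39e-06), without overlap.

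In the lower steps, from glyceraldehyde phosphate to pyruvate, Gapdh, Pgk1, Pgam1, Eno1 and Pkm rose in both experiments. Gapdh, the dehydrogenase often used as a reference gene, measured 663, 760, 695 and 686 CPM in WT and 920, 1020, 982 and 980 in Irgm1-KO. Gapdh measured 742, 741, 800 and 777 in WT_control and 1040, 1010, 989 and 1120 in Irgm1KO_control. Gapdh rose without overlap, by 0.48 (SE 0.0806, adjusted p = 0.000492) and 0.44 (SE 0.0664, adjusted p = 3.05e-05). Pgk1, which yields the first ATP, measured 74.5, 130, 92.7 and 95.8 in WT and 124, 136, 172 and 138 in Irgm1-KO. Pgk1 measured 84.6, 77.8, 85.7 and 83.9 in WT_control and 143, 137, 123 and 131 in Irgm1KO_control. WT replicate 2 overlapped the Irgm1-KO range, and Pgk1 rose by 0.53 (SE 0.178, adjusted p = 0.0312) and 0.69 (SE 0.0684, adjusted p = 4.13e-07). Pgam1, the mutase, measured 32.8, 47.9, 37.1 and 39.5 in WT and 43.6, 52.4, 59.3 and 50.7 in Irgm1-KO. Pgam1 measured 48.5, 48.7, 49.6 and 51.7 in WT_control and 64.6, 66.6, 63.6 and 62.7 in Irgm1KO_control. Pgam1 rose by 0.39 (SE 0.133, adjusted p = 0.0356), with overlap, and 0.37 (SE 0.0587, adjusted p = 4.68e-05), without. The experiment 1 call of Pgk1 ended without WT replicate 1, 3 or 4, or Irgm1-KO replicate 2 or 3 (adjusted p 0.0509 to 0.0772). The experiment 1 call of Pgam1 ended without WT replicate 1, 3 or 4, or Irgm1-KO replicate 2, 3 or 4 (adjusted p 0.0567 to 0.0905).

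Eno1, the enolase, measured 166, 175, 168 and 165 CPM in WT and 258, 283, 271 and 273 in Irgm1-KO. Eno1 measured 193, 177, 200 and 195 in WT_control and 305, 312, 287 and 311 in Irgm1KO_control. Both pairs were far apart, with rises of 0.69 (SE 0.0719, adjusted p = 1.07e-05) and 0.67 (SE 0.0925, adjusted p = 1.33e-05). Pkm encodes pyruvate kinase, the last step before pyruvate. Pkm measured 1110, 1320, 1140 and 1170 in WT and 1740, 1900, 1950 and 1850 in Irgm1-KO. Pkm measured 1330, 1250, 1260 and 1350 in WT_control and 2150, 2190, 2070 and 2200 in Irgm1KO_control. Pkm rose by 0.65 (SE 0.0748, adjusted p = 2.38e-05) and 0.73 (SE 0.0704, adjusted p = 2.77e-07), the smallest p of all 32 genes among those called higher in experiment 2. Ldha reduces pyruvate to lactate. Ldha measured 409, 891, 628 and 575 in WT and 675, 760, 1180 and 819 in Irgm1-KO. Ldha measured 453, 420, 483 and 458 in WT_control and 693, 707, 670 and 691 in Irgm1KO_control. In experiment 1 the WT libraries alone spanned more than the difference, 0.46 (adjusted p = 0.158), and in experiment 2 Ldha rose without overlap by 0.61 (SE 0.0724, adjusted p = 2.92e-06). The wide spread of Ldha in experiment 1 came with WT replicate 2 and Irgm1-KO replicate 3, the libraries at the far end of the within-group axis. Without the farthest library of each group the Ldha rise of experiment 1 passed the test, 0.505 (adjusted p = 0.0255), as it did with the Xist covariate, 0.648 (1.03e-05). Pdk1, the kinase that closes the way from pyruvate into the mitochondria, measured 79.4, 105, 101 and 94.8 in WT and 75.3, 78.1, 91.7 and 78.4 in Irgm1-KO. Pdk1 measured 62.4, 60.4, 69.6 and 61 in WT_control and 66.3, 59.3, 60.7 and 60.4 in Irgm1KO_control. Pdk1 thus did not share the rise of the pathway it guards, with differences of -0.23 (adjusted p = 0.0943) and -0.04 (adjusted p = 0.692), the first of which was called lower with the Xist covariate, -0.175 (adjusted p = 0.0268).

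Of the oxygen sensor's genes, Egln1 and Egln3 fell in both experiments. Hif1a measured 231, 206, 229 and 227 CPM in WT and 305, 279, 232 and 262 in Irgm1-KO. Hif1a measured 306, 345, 315 and 292 in WT_control and 381, 327, 331 and 346 in Irgm1KO_control. Hif1a rose a little in experiment 1, 0.27 (SE 0.0953, adjusted p = 0.0383), and overlapped in experiment 2, 0.14 (adjusted p = 0.338). Egln1, the hydroxylase PHD2 and main oxygen sensor of most cells, measured 41.9, 31.1, 38.8 and 38 in WT and 26.7, 30.6, 23.3 and 29.2 in Irgm1-KO. Egln1 measured 45.8, 49.1, 50.5 and 48.7 in WT_control and 36.3, 37.3, 36.8 and 36.6 in Irgm1KO_control. Egln1 fell, with log2 fold changes of -0.45 (SE 0.113, adjusted p = 0.00747) and -0.40 (SE 0.052, adjusted p = 6.87e-06), without overlap. Egln3, the strongly HIF-induced hydroxylase PHD3, was scarce. Egln3 measured 0.55, 0.652, 0.914 and 0.581 in WT and 0.297, 0.286, 0.338 and 0.516 in Irgm1-KO. Egln3 measured 0.731, 1.08, 1.64 and 1.72 in WT_control and 0.419, 0.474, 0.293 and 0.397 in Irgm1KO_control. Egln3 fell in both without overlap, with log2 fold changes of -0.90 (SE 0.232, adjusted p = 0.00856) and -1.70 (SE 0.391, adjusted p = 0.00166). The experiment 1 call of Hif1a ended without WT replicate 1, 2, 3 or 4, or Irgm1-KO replicate 1, 2 or 4 (adjusted p 0.052 to 0.12) and with library totals only (0.0939). Without the farthest library of each group Hif1a was called higher in experiment 2, 0.207 (adjusted p = 0.0254).

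The other hypoxia targets did not move together. Mxi1, a repressor that competes with Myc for its partner Max, measured 21.4, 19.7, 20.4 and 19.6 CPM in WT and 7.62, 8.67, 7.75 and 9.35 in Irgm1-KO. Mxi1 measured 24, 26.3, 25.6 and 24.8 in WT_control and 10.4, 12, 12.7 and 10.4 in Irgm1KO_control. Mxi1 was below the lowest wild-type value of its experiment in every Irgm1-KO and Irgm1KO_control library. Its log2 fold changes were -1.28 (SE 0.0779, adjusted p = 1.21e-07) and -1.15 (SE 0.0663, adjusted p = 1.11e-09), the smallest p of the 32 genes in both. Ndrg1, a stress-responsive gene widely used as a hypoxia marker, measured 23.7, 37.4, 28.1 and 29.2 in WT and 8.93, 9.82, 10.5 and 11.7 in Irgm1-KO. Ndrg1 measured 17.2, 14.6, 14.9 and 15.7 in WT_control and 7.04, 9.3, 7.96 and 7.23 in Irgm1KO_control. Ndrg1 fell without overlap, with log2 fold changes of -1.53 (SE 0.13, adjusted p = 2.17e-06) and -0.98 (SE 0.182, adjusted p = 0.000287). P4ha1 and P4ha2 encode the catalytic subunits of collagen prolyl hydroxylase. P4ha1 measured 87.5, 94, 98.3 and 98.3 in WT and 195, 195, 205 and 198 in Irgm1-KO. P4ha1 measured 128, 132, 135 and 143 in WT_control and 220, 202, 205 and 217 in Irgm1KO_control. P4ha1 rose more than any other of the 32 in experiment 1, 1.07 (SE 0.0697, adjusted p = 2.16e-07), and rose in experiment 2, 0.65 (SE 0.0818, adjusted p = 4.98e-06). P4ha2 measured 4.07, 3.39, 2.76 and 3.25 in WT and 5.71, 7.21, 5.58 and 6.77 in Irgm1-KO. P4ha2 measured 7.92, 6.65, 11 and 11.5 in WT_control and 6.51, 8.4, 7.66 and 7.4 in Irgm1KO_control. P4ha2 rose in experiment 1, 0.91 (SE 0.129, adjusted p = 0.000128), and overlapped in experiment 2, -0.31 (adjusted p = 0.236).

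Vegfa, the angiogenic growth factor, was the single gene called in opposite directions. Vegfa measured 102, 78.1, 83.6 and 88.4 CPM in WT and 110, 122, 96.4 and 120 in Irgm1-KO, a rise of 0.35 (SE 0.104, adjusted p = 0.0178) with overlapping libraries. Vegfa measured 79.8, 89.1, 82.3 and 103 in WT_control and 76.9, 77, 78.2 and 67.6 in Irgm1KO_control, a fall without overlap, with a log2 change of -0.24 (SE 0.0835, adjusted p = 0.0222). The difference between the experiments was not tested. The first Vegfa call ended without WT replicate 3, or Irgm1-KO replicate 2 or 4 (adjusted p 0.0548 to 0.0621) and with library totals only (0.055). The second Vegfa call ended without WT_control replicate 4, or Irgm1KO_control replicate 4 (adjusted p 0.0885 to 0.0963), with library totals only (0.122) and without the farthest library of each group (0.071). Ankrd37, an ankyrin-repeat HIF target of low abundance, did not differ beyond its spread in experiment 1, 0.00 (adjusted p = 0.995), and rose in experiment 2, 1.06 (SE 0.198, adjusted p = 0.000264). Of the exon bases of Ankrd37, 22.7% overlap Lrp2bp in the annotation used for lengths, and the sources used here do not say whether the authors counted by strand. Lrp2bp had no row in experiment 1 and 110 counts in experiment 2. Ufsp2 overlaps 3.7% of the Ankrd37 bases and had 29800 and 83047 counts in the 2 experiments, against 896 and 1274 for Ankrd37. Other genes on the opposite strand overlap 11.5% of the exon bases of Gpi1, 6.4% of those of Ndrg1 and 5.6% of those of Hif1a and of Pfkp. Genes on the same strand overlap 15.3% of those of Pkm and 10.2% of those of Pfkm. Gm49759, over Pkm, had 6776 and 15556 counts in the 2 experiments, against 990597 and 2734525 for Pkm. Gapdh, Eno1 and other glycolytic genes also have processed copies elsewhere in the genome, between which counting could split reads. Eno1b, the Eno1 copy with a row in the tables, had 34 to 117 counts a library against 8050 to 44104 for Eno1. Kdm3a, a HIF-induced histone demethylase, differed by 0.05 (adjusted p = 0.648) in experiment 1 and fell in experiment 2, -0.21 (SE 0.0663, adjusted p = 0.0151). That Kdm3a call ended without WT_control replicate 2, or Irgm1KO_control replicate 4 (adjusted p 0.0548 to 0.0663) and with library totals only (0.0987).

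HIF binds DNA at a short core, ACGTG or GCGTG, so the promoters of the 32 genes were read for it. Of the 32 genes, 31 had a RefSeq promoter window (GRCm38.p6), in 49 windows, of which the 250 bases before the start were searched for both forms on either strand. Ndrg1 had none in the table. A match was present in 38 windows (77.6%), against 38.6% of all 32851 windows. By gene, 29 of 31 (93.5%) had a match in at least 1 window, against 41.5% of 27025 genes, and Gpi1 and Tpi1 had none. ACGTG alone was present in 16.6% of all windows, GCGTG in 28.2%, and CACGTG, which contains ACGTG and is the site of Myc and its relatives, in 6.02%. The genes' windows were also richer in G and C, with a median of 60.4% against 52.4% over all windows. With a match in 29 of 31 genes, presence of the core could not have separated the directions. Of the 14 genes called higher in both experiments 13 had a match, and so had all 6 of the genes called lower in both that had a window. A match in the sequence is a description of letters, not of binding. The windows of 2 genes that rose and 2 that fell are given 5′ to 3′ on the gene's strand, with each core, on either strand, in capitals.
P4ha1, which rose, chr10:59323046-59323295, plus strand: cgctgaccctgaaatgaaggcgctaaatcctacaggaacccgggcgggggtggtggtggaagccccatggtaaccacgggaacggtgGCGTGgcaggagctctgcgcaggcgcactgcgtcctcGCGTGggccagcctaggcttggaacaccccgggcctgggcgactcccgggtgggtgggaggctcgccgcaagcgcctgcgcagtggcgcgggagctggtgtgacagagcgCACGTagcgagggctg
Pgk1, which rose, chrX:106186850-106187099, plus strand: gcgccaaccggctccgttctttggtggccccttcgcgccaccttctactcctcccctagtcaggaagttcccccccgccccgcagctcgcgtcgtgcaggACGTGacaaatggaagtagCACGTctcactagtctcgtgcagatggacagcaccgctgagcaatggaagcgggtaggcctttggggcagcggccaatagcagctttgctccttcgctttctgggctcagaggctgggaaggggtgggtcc
Mxi1, which fell, chr19:53329163-53329412, plus strand: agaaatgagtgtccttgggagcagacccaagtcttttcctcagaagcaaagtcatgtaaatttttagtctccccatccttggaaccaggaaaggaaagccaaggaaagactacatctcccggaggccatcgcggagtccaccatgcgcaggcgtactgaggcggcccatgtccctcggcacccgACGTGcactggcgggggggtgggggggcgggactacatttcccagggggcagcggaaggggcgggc
Egln3, which fell, chr12:54203875-54204124, minus strand: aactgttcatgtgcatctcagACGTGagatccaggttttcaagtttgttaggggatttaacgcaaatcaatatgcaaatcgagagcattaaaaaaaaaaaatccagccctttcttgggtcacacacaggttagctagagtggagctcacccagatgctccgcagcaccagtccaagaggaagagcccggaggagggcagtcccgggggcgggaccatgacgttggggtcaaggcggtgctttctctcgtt

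P4ha1, with the largest rise of experiment 1, holds 3 cores and Pgk1 holds 2, while Mxi1 and Egln3 hold 1 each in the printed windows. Mxi1 also has windows that are not printed, and that at chr19:53310256-53310505 holds no core. The bases just after the start were found in a transcript of the gene for 40 windows and not for 9, among them that of Egln3. The 4 were chosen after their values were seen. Among the windows not printed, that of Egln1, which fell, holds 2 cores, and those of Pfkl and Hk3, which rose, hold 1 each. That of Pgam1, which rose, holds 3. The number of cores was not compared between the directions, so the printed windows show no difference between them.

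Loss of IFNAR on top of Irgm1 split the genes again. Against Irgm1-KO, the double knockout had 12 of the 32 higher and 9 lower, where 21.5% of all genes were called higher and 21.3% lower. Against WT it had 14 higher and 0 lower, where 3.94% of all genes were called higher and 8.22% lower. At an unadjusted p under 0.05, edgeR's test gave 21 higher and 0 lower of the 32 against WT, and DESeq2 called 20 higher and 0 lower at its adjusted p. The medians of the 32 were -0.115 against Irgm1-KO and 0.32 against WT, with 0.0224 and 0.00776 over all genes. The 2 comparisons share the double knockout libraries, and the first shares the Irgm1-KO libraries with the genotype comparison above, so the values are given side by side. Among the 10 oxygen-sensing genes and other targets 6 rose and 2 fell against Irgm1-KO, and 6 rose and 0 fell against WT. Among the 22 glycolytic genes and transporters 6 rose and 7 fell against Irgm1-KO, and 8 rose and 0 fell against WT. Leaving out single libraries moved the 14 genes called higher against WT to between 8 and 17, with 8 without Irgm_IFNAR-KO replicate 2. Without replicate 3, the one with the low Ifnar1 level, 10 were called higher and 0 lower against WT, and 10 higher and 8 lower against Irgm1-KO. With log2 Xist CPM as a covariate 24 were called higher and 1 lower against WT.

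**Figure D3:**
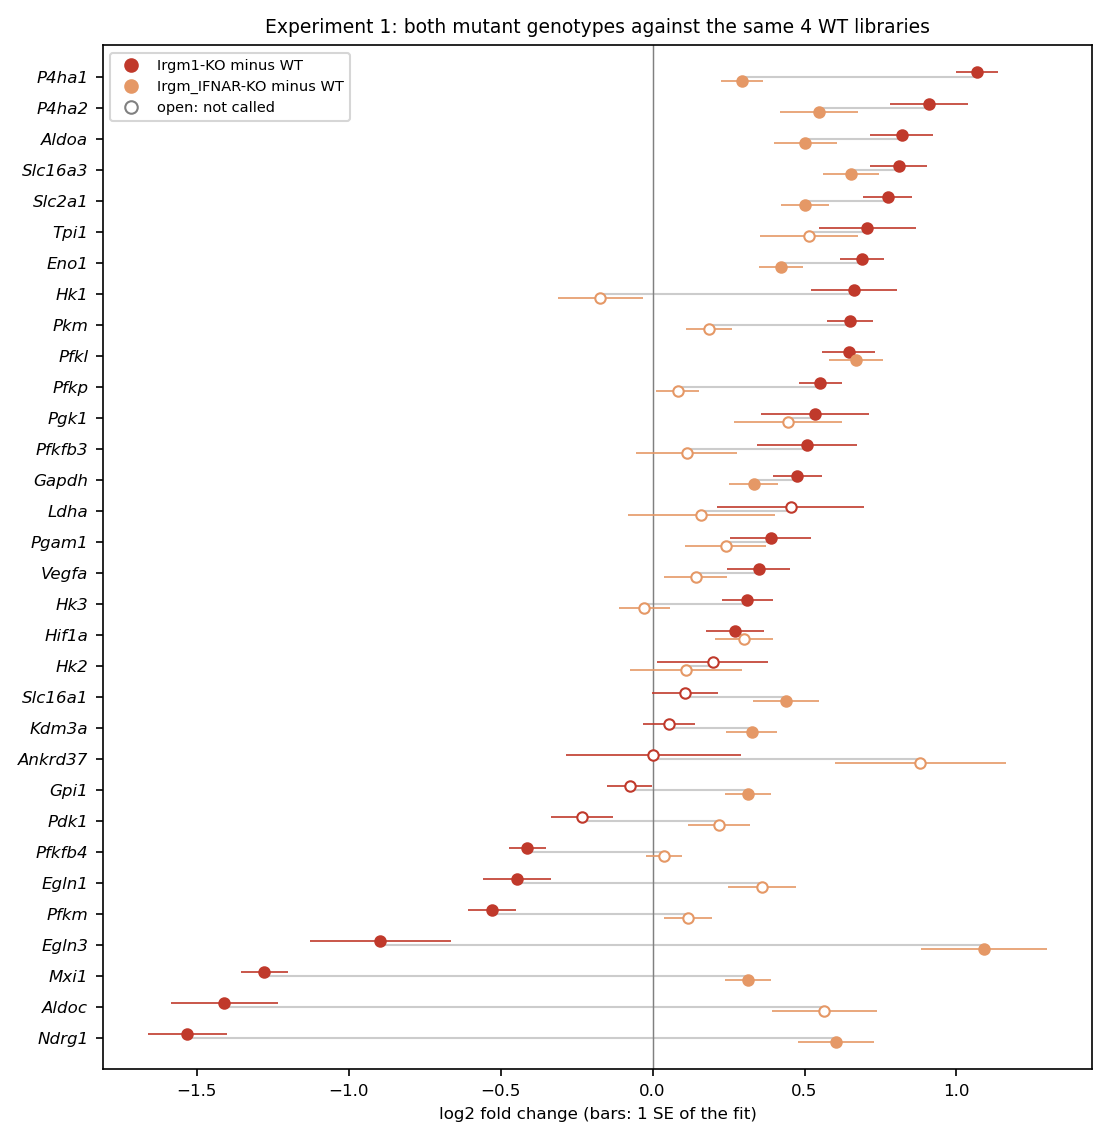
Log2 fold change over WT in experiment 1 for the 32 genes, Irgm1-KO beside Irgm_IFNAR-KO, with standard errors as bars; filled points were called and open points were not. Mxi1, Ndrg1, Aldoc and Egln3 lie left of zero in Irgm1-KO and right of it in Irgm_IFNAR-KO, while Slc2a1, Aldoa, Eno1 and Slc16a3 lie right of zero in both.

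The genes that Irgm1 loss lowered were near or above the wild-type level in the double knockout. Mxi1 measured 24.3, 26, 24.8 and 25.4 CPM in Irgm_IFNAR-KO, above every WT library. Mxi1 was higher by 1.59 (SE 0.0783, adjusted p = 1.39e-08) than in Irgm1-KO and by 0.31 (SE 0.0759, adjusted p = 0.017) than in WT. Ndrg1 measured 44.1, 42.5, 45.6 and 47.6, with rises of 2.13 (SE 0.132, adjusted p = 1.01e-07) and 0.60 (SE 0.126, adjusted p = 0.00736). Aldoc measured 49.7, 70.1, 53.7 and 66.9, a rise of 1.97 (SE 0.179, adjusted p = 2.79e-06) against Irgm1-KO and a difference of 0.56 (adjusted p = 0.0541) against WT with no overlap. Egln3 measured 1.25, 1.66, 1.36 and 1.48, and rose by 1.99 (SE 0.222, adjusted p = 1.67e-05) and 1.09 (SE 0.208, adjusted p = 0.00405). Egln1 measured 51.2, 49.6, 49.6 and 41.8, a rise of 0.81 (SE 0.113, adjusted p = 0.000109) against Irgm1-KO and a difference of 0.36 (adjusted p = 0.0602) against WT. Both hydroxylase genes of the oxygen sensor were thus near or above the wild-type range. Pfkm measured 36.8, 36.1, 36.9 and 35.6, a rise of 0.64 (SE 0.08, adjusted p = 3.78e-05) against Irgm1-KO and a difference of 0.12 (adjusted p = 0.476) against WT. Pfkfb4 measured 43.2, 46.4, 46.2 and 44.7, a rise of 0.45 (SE 0.0598, adjusted p = 6.8e-05) and a difference of 0.04 (adjusted p = 0.847). Against WT, Aldoc was called higher with DESeq2 (adjusted p = 0.0119), RLE size factors (0.0465), library totals only (0.0332), the Xist covariate (0.000324) and without the farthest libraries (0.0348), and Egln1 with DESeq2 (0.0321), the Xist covariate (0.00605) and without the farthest libraries (0.00496). The call of Mxi1 against WT ended without WT replicate 4, or Irgm_IFNAR-KO replicate 2 or 3 (adjusted p 0.054 to 0.0594).

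The genes that Irgm1 loss raised fell back by different amounts. P4ha1 measured 108, 121, 112 and 123 CPM in Irgm_IFNAR-KO, a log2 change of -0.78 (SE 0.0693, adjusted p = 2.25e-06) from Irgm1-KO that left it above WT by 0.29 (SE 0.069, adjusted p = 0.0145). Hk1 measured 213, 190, 196 and 168, a log2 change of -0.83 (SE 0.141, adjusted p = 0.000463), and did not differ beyond its spread from WT, -0.17 (adjusted p = 0.579). Pfkp measured 240, 258, 266 and 247, a log2 change of -0.47 (SE 0.0703, adjusted p = 0.000172) to a level 0.08 (adjusted p = 0.6) from WT. Pkm measured 1250, 1360, 1330 and 1440, a log2 change of -0.46 (SE 0.0746, adjusted p = 3e-04) to a level 0.19 (adjusted p = 0.149) from WT. Hk3 measured 1010, 1020, 1070 and 985, a log2 change of -0.34 (SE 0.0833, adjusted p = 0.00571), with -0.03 (adjusted p = 0.931) against WT. Apart from P4ha1, these genes passed no test against WT in edgeR's test with all libraries. Pkm was called above WT with DESeq2, 0.186 (adjusted p = 0.0399), with the Xist covariate, 0.231 (0.00109), and without the farthest libraries, 0.195 (0.0434), and Hk1 below WT with the Xist covariate, -0.261 (0.00727). The call of P4ha1 against WT ended without Irgm_IFNAR-KO replicate 2 (adjusted p 0.0563), and that of Hk3 against Irgm1-KO ended with library totals only (0.0521).

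A second set fell only part of the way. Slc2a1 measured 74.1, 75.3, 78.2 and 73.3 CPM, below every Irgm1-KO and above every WT library, with -0.27 (SE 0.0792, adjusted p = 0.0151) and 0.50 (SE 0.0794, adjusted p = 0.00111). Aldoa measured 1230, 1460, 1320 and 1620, with -0.32 (SE 0.102, adjusted p = 0.0256) and 0.50 (SE 0.103, adjusted p = 0.00621). Eno1 measured 202, 227, 227 and 247, with -0.26 (SE 0.0716, adjusted p = 0.01) and 0.42 (SE 0.0717, adjusted p = 0.00175). Each of these 3 lay between the other groups without overlap. P4ha2 measured 5.39, 4.68, 4.99 and 4.62, with -0.36 (SE 0.126, adjusted p = 0.0361) and 0.55 (SE 0.129, adjusted p = 0.0146), and was between them as well. The calls against Irgm1-KO ended for Aldoa without Irgm1-KO replicate 2 or 3, or Irgm_IFNAR-KO replicate 1 (adjusted p 0.0505 to 0.0559) and for P4ha2 without Irgm1-KO replicate 2 or 4, or Irgm_IFNAR-KO replicate 2, 3 or 4 (0.0642 to 0.11). With library totals only, the calls of Slc2a1, Eno1 and P4ha2 against Irgm1-KO ended (adjusted p = 0.129, 0.0543 and 0.103). The call of P4ha2 against WT ended without Irgm_IFNAR-KO replicate 1 or 3 (adjusted p 0.0511 to 0.0607).

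For a further set the difference from Irgm1-KO did not pass the test. Pfkl measured 73.1, 83.7, 80.3 and 74.9 CPM, 0.02 (adjusted p = 0.848) from Irgm1-KO, and was above WT by 0.67 (SE 0.0881, adjusted p = 0.000278), the smallest p of the 32 in that comparison. Slc16a3 measured 73.4, 87.7, 80.1 and 91, -0.16 (adjusted p = 0.196) from Irgm1-KO and above WT by 0.65 (SE 0.0931, adjusted p = 0.000522). Gapdh measured 793, 913, 836 and 990, -0.14 (adjusted p = 0.178) from Irgm1-KO and above WT by 0.33 (SE 0.0805, adjusted p = 0.0165). For these 3 every double knockout library was above every WT library. Tpi1 measured 423, 574, 484 and 621, with -0.19 (adjusted p = 0.362) against Irgm1-KO and 0.51 (adjusted p = 0.0582) against WT. Pgk1 measured 107, 144, 121 and 164, with -0.09 (adjusted p = 0.724) and 0.45 (adjusted p = 0.147). Pgam1 measured 41.7, 45.2, 43.7 and 55.3, with -0.15 (adjusted p = 0.403) and 0.24 (adjusted p = 0.335). Ldha measured 535, 761, 622 and 878, with -0.30 (adjusted p = 0.354) and 0.16 (adjusted p = 0.83). For these 4 genes neither difference passed edgeR's test with all libraries. Tpi1 was called above WT with DESeq2 (adjusted p = 0.0134), RLE size factors (0.0483), library totals only (0.025), the Xist covariate (1.17e-05) and without the farthest libraries (0.0296). Pgk1 was called above WT with the Xist covariate (1.01e-05) and without the farthest libraries (0.0189), and Pgam1 (0.00032) and Ldha (0.00338) with that covariate. Against Irgm1-KO, Tpi1 (0.0389), Pgam1 (0.0409) and Ldha (0.0111) were called lower with the Xist covariate. Gapdh and Slc16a3 were called below Irgm1-KO with that covariate (0.0285 and 0.0178) and without the farthest libraries, -0.233 (0.0117) and -0.216 (0.0403). Pfkfb3 measured 164, 138, 158 and 121, with -0.40 (adjusted p = 0.0747) and 0.11 (adjusted p = 0.821). Hk2 measured 100, 78, 89.6 and 64.5, with -0.09 (adjusted p = 0.735) and 0.11 (adjusted p = 0.852), so it passed no test in experiment 1. Pfkfb3 was called below Irgm1-KO with the Xist covariate (adjusted p = 0.000427) and without the farthest libraries, -0.478 (0.00115). The call of Gapdh against WT ended without WT replicate 3 or 4, or Irgm_IFNAR-KO replicate 2 (adjusted p 0.0518 to 0.0571).

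Gpi1, Slc16a1 and Kdm3a were higher in the double knockout than in either other group. Gpi1 measured 515, 570, 517 and 589 CPM, above every library of both, with 0.39 (SE 0.0742, adjusted p = 0.00108) and 0.31 (SE 0.0742, adjusted p = 0.0146). Slc16a1 measured 6.82, 8.04, 8.03 and 7.5, with 0.33 (SE 0.109, adjusted p = 0.0268) and 0.44 (SE 0.109, adjusted p = 0.0194). Kdm3a spanned 55.9 to 69.3 CPM, with 0.27 (SE 0.0845, adjusted p = 0.0211) and 0.33 (SE 0.0845, adjusted p = 0.0245). Pdk1 measured 98.7, 120, 108 and 116, a rise of 0.45 (SE 0.103, adjusted p = 0.00374) against Irgm1-KO and a difference of 0.22 (adjusted p = 0.237) against WT. Ankrd37 spanned 1.35 to 2.34 CPM, with 0.88 (SE 0.28, adjusted p = 0.0238) and 0.88 (adjusted p = 0.0651). Hif1a measured 290, 276, 294 and 241, 0.03 (adjusted p = 0.827) from Irgm1-KO and 0.30 (adjusted p = 0.0616) above WT, with every library above the WT range. Vegfa measured 102, 91.7, 105 and 89.6, with -0.21 (adjusted p = 0.13) and 0.14 (adjusted p = 0.514). Against WT, Ankrd37 was called higher with DESeq2 (adjusted p = 0.0141), library totals only (0.0358), the Xist covariate (0.00013) and without the farthest libraries (0.0195), and Hif1a with DESeq2 (0.0321), the Xist covariate (0.00583) and without the farthest libraries (0.00599). Pdk1 was called above WT with the Xist covariate (0.0037). Vegfa was called below Irgm1-KO with that covariate (0.00944) and without the farthest libraries, -0.271 (0.0167). The calls against Irgm1-KO ended for Slc16a1 without Irgm1-KO replicate 1 or 3, or Irgm_IFNAR-KO replicate 2 or 3 (adjusted p 0.0613 to 0.087), for Kdm3a without Irgm1-KO replicate 3, or Irgm_IFNAR-KO replicate 1 or 3 (0.0505 to 0.104) and for Ankrd37 without Irgm1-KO replicate 1, 2 or 4, or Irgm_IFNAR-KO replicate 2 or 4 (0.0507 to 0.0658). Slc16a1 also lost that call without the farthest library of each group (0.103), and Kdm3a with library totals only (0.0508). The calls against WT ended for Gpi1 without Irgm_IFNAR-KO replicate 2 (0.0551), for Slc16a1 without WT replicate 3, or Irgm_IFNAR-KO replicate 2 or 3 (0.0638 to 0.0724) and for Kdm3a without WT replicate 1 or 2, or Irgm_IFNAR-KO replicate 1, 2 or 3 (0.0514 to 0.118) and with library totals only (0.0677).

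Fenofibrate raised most of these genes in both genotypes. In WT macrophages 17 of 32 rose and 5 fell, where 18.1% of all genes were called higher and 16.9% lower. In Irgm1-deficient macrophages 22 rose and 2 fell, where 23.5% were called higher and 22.2% lower. The medians of the 32 were 0.291 and 0.39, against 0.0165 and 0.013 over all genes. The 2 effects share no library with each other, but each shares its control libraries with the genotype comparison of experiment 2. The genes called higher in both numbered 14, 82.4% of the WT list and 63.6% of the Irgm1-deficient list. Both genes called lower in Irgm1-deficient cells, Pfkfb3 and Hif1a, were also called lower in WT, 40% of the 5. Pfkm was called in opposite directions, and Slc2a1, Pfkp and Pkm in neither genotype. The difference of the 2 effects, tested as an interaction, was called above 0 for 7 genes and below 0 for 1, where 14.9% and 14.7% of all genes were called. With the replicate block, which pairs control and treated libraries of a number, these counts were 12 and 3, and the counts in WT were 20 and 5.

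**Figure D4:**
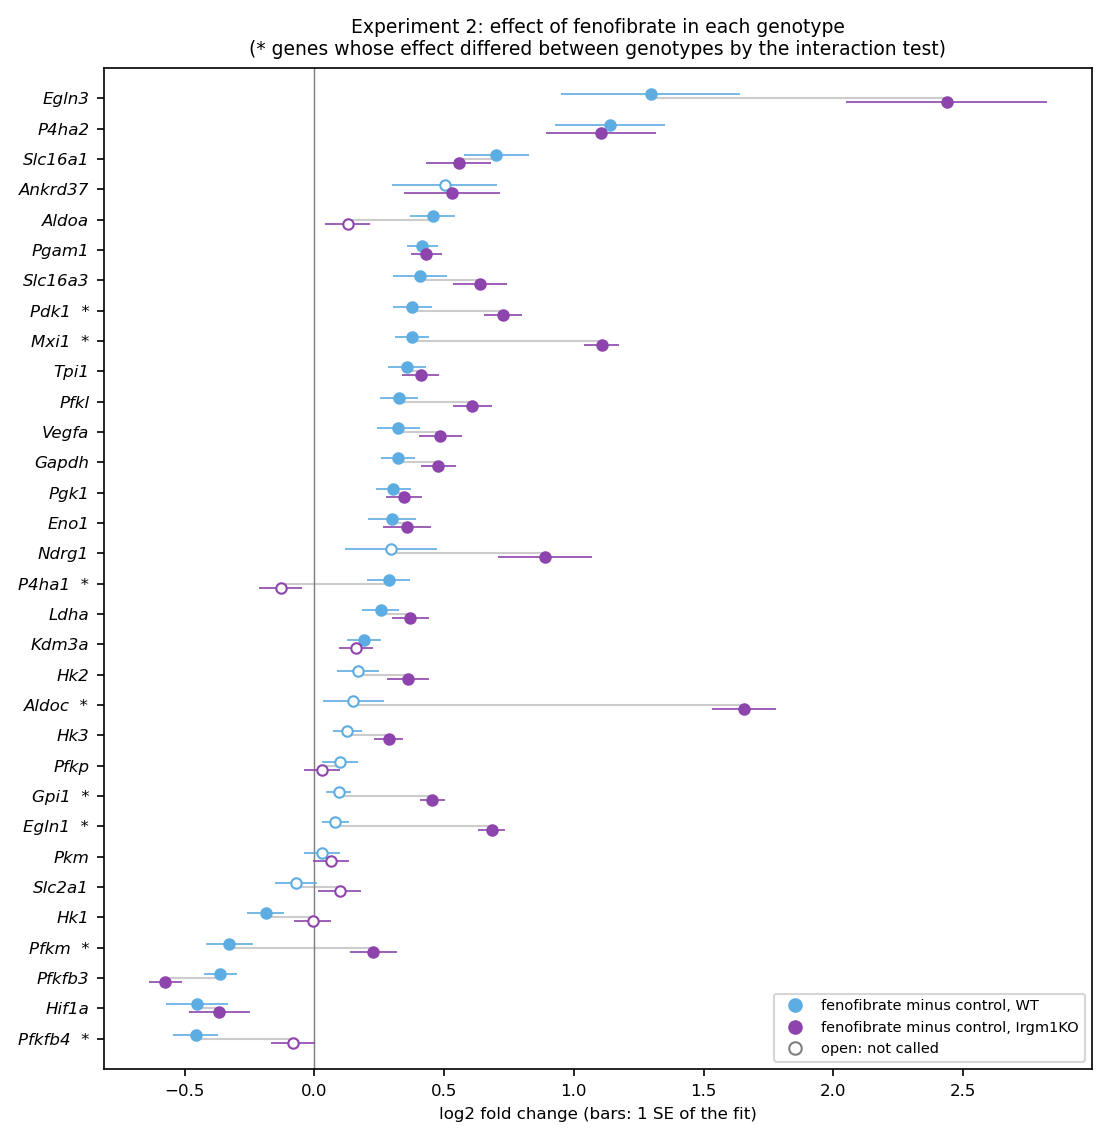
Log2 fold change with fenofibrate for the 32 genes, WT beside Irgm1-deficient macrophages of experiment 2, with standard errors as bars; filled points were called and open points were not. Egln1, Aldoc, Ndrg1 and Mxi1 lie further right in Irgm1-deficient cells, and Pfkfb3 and Hif1a lie left of zero in both.

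Of the genes that were lower without Irgm1, Mxi1, Aldoc and Egln1 rose more with fenofibrate in Irgm1-deficient cells than in WT. The same Irgm1KO_control and WT_control libraries enter that genotype difference and this difference of effects, so the 2 are not independent. Mxi1 measured 30, 32.2, 33.8 and 34.5 CPM in WT_fenofibrate and 24.1, 24.2, 25.7 and 23.8 in Irgm1KO_fenofibrate. Fenofibrate raised Mxi1 by 0.38 (SE 0.0648, adjusted p = 0.000332) in WT and 1.11 (SE 0.0663, adjusted p = 4.85e-09) in deficient cells, a difference of 0.73 (SE 0.0923, adjusted p = 3.02e-05). The treated deficient libraries overlapped the untreated wild-type range of 24 to 26.3. Aldoc measured 34.5, 29.3, 32.4 and 31.8 in WT_fenofibrate and 42.3, 57.7, 57.2 and 46.2 in Irgm1KO_fenofibrate. Its effect was 0.15 (adjusted p = 0.359) in WT, called with the replicate block at an adjusted p of 0.0123, and 1.66 (SE 0.122, adjusted p = 4.47e-08) in deficient cells. The difference was 1.51 (SE 0.168, adjusted p = 1.38e-05), and all 4 treated deficient libraries were above all treated wild-type ones. Egln1 measured 46.5, 50.2, 53.1 and 55.5 in WT_fenofibrate and 55.5, 60.9, 61.1 and 58.5 in Irgm1KO_fenofibrate. Egln1 differed by 0.08 (adjusted p = 0.248) in WT and rose by 0.68 (SE 0.0522, adjusted p = 4.44e-08) in deficient cells, a difference of 0.60 (SE 0.0734, adjusted p = 2.17e-05). Egln3 measured 1.43, 2.04, 4.77 and 4.49 in WT_fenofibrate and 1.81, 1.75, 2.63 and 2.43 in Irgm1KO_fenofibrate. Egln3 rose in both, by 1.30 (SE 0.346, adjusted p = 0.00866) with overlap and 2.44 (SE 0.387, adjusted p = 9.85e-05) without. Their difference was 1.14 (adjusted p = 0.112), and 1.16 with the replicate block (adjusted p = 0.00215).

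Ndrg1 measured 19.4, 13.7, 16.4 and 27 CPM in WT_fenofibrate and 12.3, 18.3, 16 and 11.8 in Irgm1KO_fenofibrate. Ndrg1 differed by 0.30 (adjusted p = 0.223) in WT and rose by 0.89 (SE 0.182, adjusted p = 0.00089) in deficient cells. The difference was 0.59 (adjusted p = 0.0944), and 0.618 with the replicate block (adjusted p = 0.0106). Pfkm measured 26.6, 25.2, 26.9 and 19 in WT_fenofibrate and 25.3, 24.6, 22.4 and 24.8 in Irgm1KO_fenofibrate. Pfkm fell in WT, -0.33 (SE 0.0901, adjusted p = 0.00953), and rose in deficient cells, 0.23 (SE 0.0905, adjusted p = 0.0498), with a difference of 0.56 (SE 0.128, adjusted p = 0.00373). Pfkfb4 measured 26.8, 24.6, 28.2 and 20.6 in WT_fenofibrate and 28.2, 30.5, 25.1 and 26.7 in Irgm1KO_fenofibrate. Pfkfb4 fell in WT, -0.46 (SE 0.0858, adjusted p = 0.000645), and differed by -0.08 (adjusted p = 0.455) in deficient cells, with a difference of 0.37 (SE 0.121, adjusted p = 0.0285). For Pfkm and Pfkfb4 the 2 genotypes overlapped after treatment. The rise of Pfkm in deficient cells ended without Irgm1KO_control replicate 1, 2, 3 or 4, or Irgm1KO_fenofibrate replicate 1, 2 or 4 (adjusted p 0.0519 to 0.198), with DESeq2 (0.0648), with RLE size factors (0.0695) and without the farthest library of each group (0.163). That last setting also ended the fall of Pfkm in WT (0.0549). The Pfkfb4 difference ended without WT_control replicate 2 or 3, or Irgm1KO_control replicate 3 (adjusted p 0.0509 to 0.0631), with library totals only (0.0831) and without the farthest libraries (0.188).

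Among transporters, Slc2a1 measured 61.3, 62.6, 70.3 and 82.1 CPM in WT_fenofibrate and 93.1, 108, 106 and 102 in Irgm1KO_fenofibrate. Neither effect passed the test, -0.07 (adjusted p = 0.54) and 0.10 (adjusted p = 0.355). Slc16a3 measured 49.9, 48.3, 62.1 and 70.1 in WT_fenofibrate and 101, 128, 112 and 113 in Irgm1KO_fenofibrate. Slc16a3 rose by 0.41 (SE 0.105, adjusted p = 0.00641) and 0.64 (SE 0.104, adjusted p = 0.000108), in each genotype without overlap. Slc16a1 measured 15.1, 20.7, 14.6 and 21 in WT_fenofibrate and 22.6, 19.1, 24.8 and 25.5 in Irgm1KO_fenofibrate. Slc16a1 rose by 0.70 (SE 0.125, adjusted p = 0.000456) and 0.56 (SE 0.124, adjusted p = 0.0016). Both lactate carriers among the 32 thus rose in each genotype, while the glucose transporter gene passed neither test.

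Of the hexokinases, Hk1 measured 264, 218, 267 and 250 CPM in WT_fenofibrate and 367, 406, 350 and 351 in Irgm1KO_fenofibrate, with -0.19 (adjusted p = 0.0497) and -0.01 (adjusted p = 0.956). Hk2 measured 149, 196, 165 and 188 in WT_fenofibrate and 172, 179, 193 and 191 in Irgm1KO_fenofibrate, with 0.17 (adjusted p = 0.124) and 0.36 (adjusted p = 0.00165). Hk3 measured 1460, 1350, 1460 and 1470 in WT_fenofibrate and 1640, 1910, 1750 and 1790 in Irgm1KO_fenofibrate, with 0.13 (adjusted p = 0.0923) and 0.29 (adjusted p = 0.000547). Hk2 and Hk3 rose in deficient cells without overlap, and Hk1 fell slightly in WT with overlap. With the replicate block Hk2 and Hk3 were called in WT as well (adjusted p = 0.00849 and 0.0402), and the differences between genotypes of Hk1 (0.181, adjusted p = 0.0304) and Hk2 (0.196, 0.0244) passed, the latter also with the Xist covariate (0.215, 0.0475). The WT call of Hk1 ended without WT_control replicate 1, 3 or 4, or WT_fenofibrate replicate 2 or 4 (adjusted p 0.0866 to 0.161) and with library totals only, -0.07 (0.483). Gpi1 measured 455, 426, 478 and 457 in WT_fenofibrate and 611, 698, 621 and 633 in Irgm1KO_fenofibrate. Gpi1 differed by 0.09 (adjusted p = 0.157) in WT and rose by 0.46 (SE 0.0494, adjusted p = 1.63e-06) in deficient cells, a difference of 0.36 (SE 0.0698, adjusted p = 0.00107). With library totals only, which moved the median of all genes up in WT, Gpi1, Hk2, Hk3, Egln1 and Pfkp were called higher there (adjusted p = 0.0172, 0.0223, 0.0106, 0.0344 and 0.0379). Without the farthest libraries Gpi1 (0.0298) and Pfkp (0.0453) were called higher in WT as well.

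Pfkl measured 66.2, 75.5, 85.4 and 88.4 CPM in WT_fenofibrate and 104, 121, 113 and 113 in Irgm1KO_fenofibrate. Pfkl rose by 0.33 (SE 0.0742, adjusted p = 0.00278) and 0.61 (SE 0.0743, adjusted p = 5.5e-06), without overlap, and the difference of 0.28 (adjusted p = 0.0524) passed with the replicate block (0.289, adjusted p = 0.0121) and with DESeq2 (0.0456). Pfkp measured 289, 237, 304 and 283 in WT_fenofibrate and 387, 413, 380 and 386 in Irgm1KO_fenofibrate, with 0.10 (adjusted p = 0.292) and 0.03 (adjusted p = 0.754). Pfkfb3 measured 138, 151, 147 and 126 in WT_fenofibrate and 133, 125, 140 and 138 in Irgm1KO_fenofibrate. Pfkfb3 fell without overlap in both, -0.36 (SE 0.0644, adjusted p = 0.000423) and -0.57 (SE 0.0645, adjusted p = 2.35e-06). The difference of -0.21 (adjusted p = 0.0926) passed with the replicate block (-0.21, adjusted p = 0.00727) and with library totals only (-0.31, 0.0131). Aldoa measured 1240, 1130, 1350 and 1470 in WT_fenofibrate and 1600, 2110, 1850 and 1750 in Irgm1KO_fenofibrate. Aldoa rose by 0.46 (SE 0.087, adjusted p = 0.000734) in WT, where it started lower, and differed by 0.13 (adjusted p = 0.246) in deficient cells. Its difference of -0.33 (adjusted p = 0.0546) passed with the replicate block (adjusted p = 0.00819), with DESeq2 (0.0254), RLE size factors (0.0446) and library totals only (0.0296), and without the farthest libraries (0.00386). Tpi1 measured 361, 348, 430 and 418 in WT_fenofibrate and 577, 711, 622 and 622 in Irgm1KO_fenofibrate. Tpi1 rose by 0.36 (SE 0.0721, adjusted p = 0.00116) and 0.41 (SE 0.0721, adjusted p = 0.000199).

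In the lower steps, Gapdh measured 935, 889, 981 and 1020 CPM in WT_fenofibrate and 1310, 1630, 1430 and 1420 in Irgm1KO_fenofibrate. Gapdh rose by 0.32 (SE 0.0664, adjusted p = 0.00135) and 0.48 (SE 0.0664, adjusted p = 2.05e-05). Pgk1 measured 96.8, 92.4, 106 and 115 in WT_fenofibrate and 161, 185, 169 and 164 in Irgm1KO_fenofibrate. Pgk1 rose by 0.30 (SE 0.0682, adjusted p = 0.00244) and 0.35 (SE 0.0681, adjusted p = 0.000549). Pgam1 measured 62, 63.5, 63 and 76.5 in WT_fenofibrate and 81.7, 88.5, 87.4 and 89.7 in Irgm1KO_fenofibrate. Pgam1 rose by 0.42 (SE 0.0587, adjusted p = 5.83e-05), the smallest p of the 32 in WT, and 0.43 (SE 0.0586, adjusted p = 1.61e-05). For these 3 genes no treated library overlapped the controls of its genotype. Eno1 measured 218, 205, 236 and 282 in WT_fenofibrate and 346, 460, 380 and 372 in Irgm1KO_fenofibrate, with rises of 0.30 (adjusted p = 0.0182) and 0.36 (adjusted p = 0.00437). The WT call of Eno1 ended without WT_control replicate 2, or WT_fenofibrate replicate 4 (adjusted p 0.063 to 0.0768). Pkm measured 1330, 1210, 1250 and 1500 in WT_fenofibrate and 2100, 2520, 2220 and 2160 in Irgm1KO_fenofibrate, with 0.03 (adjusted p = 0.785) and 0.06 (adjusted p = 0.49). Pkm, among the genes that Irgm1 loss raised most, thus did not differ beyond its spread with the drug. Ldha measured 507, 476, 572 and 610 in WT_fenofibrate and 829, 970, 901 and 868 in Irgm1KO_fenofibrate, with rises of 0.26 (adjusted p = 0.0112) and 0.37 (adjusted p = 0.000511). Pdk1 measured 75.6, 78.9, 94.1 and 80.7 in WT_fenofibrate and 110, 89.2, 104 and 105 in Irgm1KO_fenofibrate. Pdk1 rose without overlap in both, by 0.38 (SE 0.0743, adjusted p = 0.000931) and 0.73 (SE 0.0745, adjusted p = 8.81e-07), a difference of 0.35 (SE 0.105, adjusted p = 0.0195). The Pdk1 difference ended without WT_control replicate 3, or Irgm1KO_control replicate 2, or Irgm1KO_fenofibrate replicate 1 (adjusted p 0.054 to 0.0602) and with library totals only (0.0986).

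Hif1a measured 218, 233, 253 and 216 CPM in WT_fenofibrate and 312, 187, 285 and 291 in Irgm1KO_fenofibrate. Hif1a fell without overlap in both, -0.45 (SE 0.118, adjusted p = 0.00724) and -0.37 (SE 0.118, adjusted p = 0.0183), while Egln3 and Vegfa, its textbook targets, rose. The Hif1a call in deficient cells ended without Irgm1KO_control replicate 1 (adjusted p 0.0597) and with no filter on low counts (0.0628). Vegfa measured 98.3, 109, 115 and 122 in WT_fenofibrate and 101, 103, 117 and 98.9 in Irgm1KO_fenofibrate. Vegfa rose by 0.32 (SE 0.0834, adjusted p = 0.00627), with overlap, and 0.49 (SE 0.0836, adjusted p = 0.000161), without. P4ha1 measured 138, 162, 160 and 196 in WT_fenofibrate and 189, 177, 204 and 201 in Irgm1KO_fenofibrate. P4ha1 rose in WT, 0.29 (SE 0.0815, adjusted p = 0.0118), and differed by -0.13 (adjusted p = 0.208) in deficient cells, the single difference between genotypes called below 0, -0.42 (SE 0.115, adjusted p = 0.0122). Both P4ha1 calls ended without the farthest library of each group (adjusted p = 0.052 and 0.0607). P4ha2 measured 15.1, 15, 21 and 30.5 in WT_fenofibrate and 14.1, 17, 16.2 and 17 in Irgm1KO_fenofibrate. P4ha2 rose in each genotype, 1.14 (SE 0.211, adjusted p = 0.000703) and 1.10 (SE 0.212, adjusted p = 0.000536), without overlap. Ankrd37 differed by 0.50 (adjusted p = 0.0637) in WT and rose in deficient cells, 0.53 (adjusted p = 0.0272), and Kdm3a rose in WT, 0.19 (adjusted p = 0.0331), and differed by 0.16 (adjusted p = 0.0578) in deficient cells. With the replicate block Kdm3a was called there too (0.158, adjusted p = 0.0288), as it was with the Xist covariate (0.0207) and without the farthest libraries (0.00476). In WT Ankrd37 was called with library totals only (0.0303) and without the farthest libraries (0.0178). The Ankrd37 call ended without Irgm1KO_control replicate 2 or 4, or Irgm1KO_fenofibrate replicate 2 or 3 (adjusted p 0.0719 to 0.097) and without the farthest libraries (0.0614), and the WT call of Kdm3a ended without WT_control replicate 1, 2, 3 or 4, or WT_fenofibrate replicate 2 or 4 (0.0561 to 0.116) and with no filter on low counts (0.0506).

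The isoforms of 1 step could be compared per length of exon, as shares of a family's summed CPM per kb. Pfkm made up 28.5% ± 0.743 (SD, n = 4) of phosphofructokinase RNA in WT, 15.6% ± 0.515 in Irgm1-KO and 26.3% ± 0.994 in Irgm_IFNAR-KO. In experiment 2 the Pfkm share was 24.2% ± 1.53 in WT_control, 18.4% ± 2.94 in WT_fenofibrate, 13.5% ± 0.83 in Irgm1KO_control and 13.6% ± 0.777 in Irgm1KO_fenofibrate. Pfkp was the major isoform of that step throughout, from 45.5% ± 0.588 in Irgm_IFNAR-KO to 62.3% ± 1.18 in Irgm1KO_control. The share of Pfkl was 20.9% ± 0.838 in WT, 25.8% ± 0.753 in Irgm1-KO and 28.2% ± 0.863 in Irgm_IFNAR-KO. With fenofibrate the Pfkl share was 29.6% ± 3.36 in WT and 31.6% ± 1.17 in deficient cells, against 24.9% ± 1.42 and 24.2% ± 0.516 in the controls. The mean share of Pfkl was higher in Irgm_IFNAR-KO than in WT, a difference in shares that was not tested. Of aldolase RNA, Aldoc was 3.53% ± 0.174 in WT, 0.764% ± 0.152 in Irgm1-KO and 3.66% ± 0.3 in Irgm_IFNAR-KO. The Aldoc share was 2.65% ± 0.154 in WT_control, 2.17% ± 0.226 in WT_fenofibrate, 0.857% ± 0.185 in Irgm1KO_control and 2.42% ± 0.182 in Irgm1KO_fenofibrate. Hk3 made up 85.4 to 88.4% of hexokinase RNA in all 7 groups. Lengths merged the exons of all annotated transcripts of a gene, giving 13401 bases for Pfkp, 6675 for Pfkl and 3340 for Pfkm. They need not match the transcripts made in these cells, and the share of an isoform against another depends on them. Before division by length, WT averaged 238.4 CPM for Pfkp, 49.03 for Pfkl and 33.54 for Pfkm. The lengths also came from a mouse annotation of another build than the reads' one, so the shares are approximate.

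**Figure D5:**
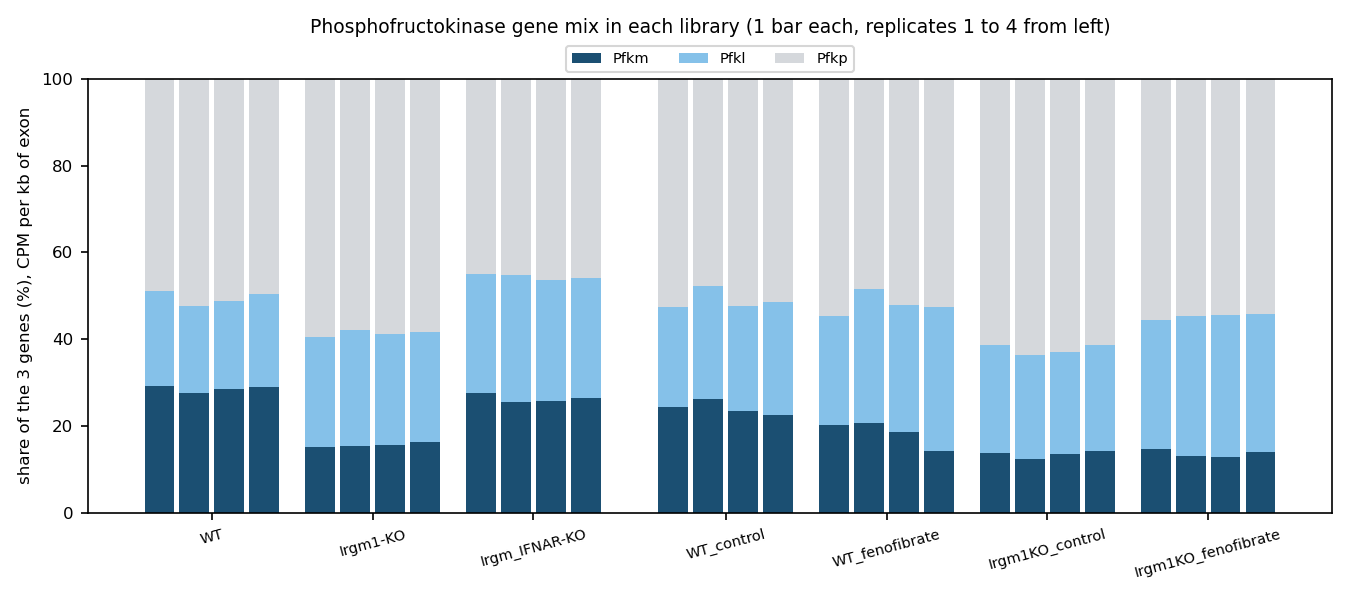
Share of phosphofructokinase RNA per exon length from Pfkl, Pfkm and Pfkp in each library (percent, by group). Each bar is 1 library, divided among Pfkl, Pfkm and Pfkp. The mean Pfkm share over the libraries of a group is 15.6% in Irgm1-KO against 28.5% in WT and 26.3% in Irgm_IFNAR-KO.

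Related genes outside the 32 were counted from lists written by role, also with earlier results of these data known. Each list is to be read against the share of all genes called. That share was 19.8% higher and 20.7% lower in Irgm1-KO and 27.3% and 26.1% in experiment 2. Of 14 tested regulators of HIF, 0 rose and 2 fell in Irgm1-KO (Epas1 and Siah2), and of 15 in experiment 2, 4 rose and 4 fell. Epas1, the alpha subunit HIF-2, measured 0.203 CPM on average in Irgm1-KO against 0.953 in WT, which is -2.22 on the log2 scale (SE 0.384, adjusted p = 0.000603). In experiment 2 Epas1 measured 0.546 against 2.42, -2.15 (adjusted p = 4.17e-07), and fenofibrate raised it in deficient cells by 1.70 (8.16e-06). Hif1an, the asparagine hydroxylase of HIF, fell in experiment 2 (-0.33, adjusted p = 6.91e-06). Of 16 other glycolytic and glucose-entry genes 2 rose and 5 fell in Irgm1-KO, and 3 rose and 6 fell in experiment 2. Ldhb, the lactate dehydrogenase subunit that favours pyruvate, fell in both, -1.86 (adjusted p = 1.44e-06) and -1.90 (8.67e-07), and was 2.56 higher in the double knockout than in Irgm1-KO (6.43e-08). Slc2a8, an intracellular glucose transporter, fell in Irgm1-KO (-1.01, adjusted p = 3.43e-06), and Slc16a7, the carrier MCT2, fell in both, -0.76 (2.06e-05) and -0.78 (3.29e-06).

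Of 24 other hypoxia targets 7 rose and 6 fell in Irgm1-KO, 10 rose and 9 fell in experiment 2, and 8 rose and 5 fell in the double knockout against Irgm1-KO. Over all genes the shares called higher and lower were 19.8% and 20.7%, 27.3% and 26.1%, and 21.5% and 21.3% in that order, so that the counts lower in Irgm1-KO and in the double knockout were near the background. Ppfia4 fell by 1.44 (adjusted p = 5.89e-08) and Ak4, a mitochondrial adenylate kinase, rose by 1.32 (2.98e-06) in Irgm1-KO. Ccng2 fell by 0.94 (adjusted p = 1.32e-08) and Bnip3l, a mitophagy receptor, fell by 0.51 (6.95e-07) in experiment 2. Fenofibrate moved 10 of the 24 up and 3 down in WT, and 10 up and 2 down in deficient cells, against 18.1% and 16.9% of all genes in WT and 23.5% and 22.2% in deficient cells. There Fam162a rose by 0.82 (adjusted p = 2.26e-06).

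Of 10 pentose phosphate genes 4 rose and 3 fell in Irgm1-KO, with Pgd up by 0.44 (adjusted p = 7.34e-05), G6pdx up by 0.42 (0.000203) and Prps2 down, -0.81 (2.73e-06). In experiment 2, 2 of the 10 rose and 1 fell, and H6pd was among those that rose (0.49, adjusted p = 1.35e-06). Over all genes 19.8% were called higher and 20.7% lower in Irgm1-KO, and 27.3% and 26.1% in experiment 2, so the pentose phosphate counts of experiment 2 were below the background. Of 13 glycogen and glucose phosphate genes 4 rose and 5 fell in Irgm1-KO, with Gbe1 at 0.81 (adjusted p = 9.4e-06) and Pgm1 at 0.73 (1.37e-05). Pygl, the liver-type glycogen phosphorylase, fell by 1.07 in experiment 2 (adjusted p = 1.81e-06). Fenofibrate raised 7 of 14 of these in WT and 8 in deficient cells, against 18.1% and 23.5% of all genes, among them Gys1, glycogen synthase, by 0.42 (adjusted p = 0.000238) and 0.84 (1.03e-07). Of 10 genes of the pyruvate dehydrogenase complex and its control 3 rose and 3 fell in Irgm1-KO, and 5 rose and 4 fell in experiment 2. Pdk2, an isoform of the kinase family of Pdk1, fell in both, -0.90 (adjusted p = 2.29e-05) and -0.76 (2.34e-05).

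Of 12 tested genes from a list of upstream regulators of glycolysis 5 rose and 1 fell in Irgm1-KO, where 19.8% and 20.7% of all genes did, and 8 rose and 1 fell in experiment 2, where 27.3% and 26.1% did. In the double knockout 1 rose and 5 fell against Irgm1-KO, with 21.5% and 21.3% of all genes. Acod1, which makes itaconate, a metabolite known to inhibit glycolytic enzymes, rose by 2.42 (adjusted p = 8.41e-09), and Atf4, a stress-response activator, by 1.82 (4.98e-08) and, in experiment 2, by 1.28 (8.47e-07). Irf7, an interferon-induced factor, averaged 2460 CPM in Irgm1-KO and 28.7 in the double knockout, -6.42 on the log2 scale (adjusted p = 3.16e-10). Fenofibrate raised Atf4 in WT by 1.38 (adjusted p = 3.05e-06) and lowered Acod1 (-1.25, 5.87e-07) and Nos2 (-1.87, 6.96e-06) in deficient cells.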

How the data were processed

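RNA from 28 libraries of mouse bone marrow-derived macrophages was sequenced after poly(A) selection, in 2 experiments. The authors deposited whole-number counts per gene, 1 table per experiment. The submitters' processing notes name fastp, STAR, DESeq2 and the genome build GRCm39. For the counter, its gene annotation and whether it used strand: not given in the sources used here. The first table held 15423 genes and no row with a maximum under 10, the second 56941, so the first had been filtered before deposit. No column belonged to another series.

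Each table was fitted on its own in R 4.3.3 with edgeR 4.0.16 (TMM, filterByExpr with a minimum count of 10 and a minimum total of 15, robust glmQLFit and glmQLFTest, 1 coefficient per group). P-values were adjusted by Benjamini and Hochberg over all genes tested, and a gene was called at 0.05. SE is the fold change divided by the square root of F. On simulated counts at these depths, 43.3% of 1.5-fold and 92.5% of 2-fold changes were recovered in Irgm1-KO against WT (13807 genes run), and 82.1% and 91% in Irgm1KO_control against WT_control (15185 genes). In each run 67 genes changed 1.5-fold, 67 2-fold and 66 3-fold, while 13607 and 14985 did not change. In the data 19.8% and 27.3% of genes were called higher in these comparisons. The adjusted cut was thus stricter in the simulation, and its rates do not give the recovery in the data. The biological coefficient of variation was 0.172 and 0.12. No 2 libraries of a group agreed within sampling noise (lowest chi-square per degree of freedom 20.5). CPM use TMM-scaled totals, and depth was high enough that counting error is small for all 32 genes but Egln3 and Ankrd37.

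The replicate numbers of experiment 2 pair control and treated libraries within a genotype: deviations of the same number correlated at 0.38 to 0.488 in WT and 0.261 to 0.371 in deficient cells, other numbers at -0.294 to 0.145 and -0.216 to 0.0132. The replicate block is therefore given beside results it changes in experiment 2. Alternatives were DESeq2 1.42.0, RLE size factors, library totals only, no filter on low counts, log2 Xist CPM as a covariate (pseudocount 0.1), the replicate block and leaving out each library. Leaving out the farthest library of each group was added after seeing the data. The 32 genes and the other lists were chosen with earlier results of these data known. Values in every library are given for a fixed set of genes and for up to 4 called genes in each direction per comparison by smallest p, and up to 3 called genes of each other list are named per comparison. Promoters are from RefSeq (GRCm38.p6). No protein sequences were used. A gene of the longer hypoxia list is counted there but not reported here by name.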

Additional observations from a re-analysis of the deposited data

Results flagged for a closer look

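Within groups, 1 library stood far from the other 3 in 8 of 238 sets of 4 values tested, fewer than the 1 in 20 that chance gives. Hk3 measured 1350 CPM in WT_fenofibrate replicate 2, against 1460 to 1470 in the others, and 1570 in Irgm1KO_control replicate 4, against 1400 to 1420. Aldoa measured 1590 in Irgm1KO_control replicate 3, against 1690 to 1710. Pgam1 measured 76.5 in WT_fenofibrate replicate 4, against 62 to 63.5. Hif1a measured 206 in WT replicate 2, against 227 to 231. Egln1 measured 41.8 in Irgm_IFNAR-KO replicate 4, against 49.6 to 51.2. Vegfa measured 67.6 in Irgm1KO_control replicate 4, against 76.9 to 78.2. Ifnar1 measured 53.1 in Irgm_IFNAR-KO replicate 3, against 108 to 114.

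Over all genes the interaction test called 14.9% above 0 and 14.7% below. The counts with the replicate block, which pairs libraries, are given above. By the interaction test without the block, the fenofibrate effect differed between the genotypes for 8 of the 32 genes. As log2 differences, Irgm1-deficient minus WT, these were 1.51 for Aldoc, 0.731 for Mxi1, 0.602 for Egln1, 0.556 for Pfkm, 0.374 for Pfkfb4, 0.361 for Gpi1, 0.349 for Pdk1 and -0.416 for P4ha1.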

How the results depend on the processing

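Under the alternatives no called gene changed direction. Among genes not called, a sign changed 23 times over settings other than leaving out single libraries and 54 times when leaving them out, in 24 pairs of gene and comparison with sizes of at most 0.261. With library totals only, the genes called lower in Irgm_IFNAR-KO against Irgm1-KO went from 9 to 5, and with the Xist covariate to 16. With that covariate the genes called higher in Irgm_IFNAR-KO against WT went from 14 to 24 and those lower from 0 to 1 (Hk1, -0.26, adjusted p = 0.00727), while calls over all genes went from 552 higher and 1150 lower to 2087 and 2123. With no filter on low counts 1 of 2 genes stayed called lower with fenofibrate in Irgm1-deficient cells. The interaction, 7 above and 1 below 0, gave 12 above and 3 below with the replicate block, and 2 below with DESeq2, 2 with RLE size factors and 3 with library totals only. Library totals only moved the median of all genes from 0.0165 to 0.127 for fenofibrate in WT and to -0.102 for the interaction, which turned the all-gene split in WT from 2794 higher and 2613 lower to 4389 and 1571, and that of the interaction from 2304 and 2261 to 1447 and 2967. The split of the 32 genes was then 23 and 4 in WT and 5 and 3 for the interaction. Leaving out single libraries gave, higher and lower, 13 to 17 and 7 to 8 in Irgm1-KO against WT, 10 to 11 and 7 to 10 in Irgm_IFNAR-KO against Irgm1-KO, 8 to 17 and 0 to 0 in Irgm_IFNAR-KO against WT, and 16 to 18 and 7 to 8 in Irgm1KO_control against WT_control. For fenofibrate they gave 15 to 19 and 4 to 5 in WT, 20 to 22 and 1 to 2 in deficient cells (1 without Irgm1KO_control replicate 1), and 5 to 9 and 1 to 2 for the interaction (2 without WT_control replicate 2 or 3, WT_fenofibrate replicate 2 or 4, or Irgm1KO_fenofibrate replicate 2). In experiment 1 the numbers do not pair the libraries (correlations of -0.479 to 0.519), and the replicate block gave 17 and 7, 11 and 8, and 15 and 0. It ended the calls of Hif1a in Irgm1-KO (adjusted p = 0.059), P4ha2 and Kdm3a in Irgm_IFNAR-KO against Irgm1-KO (0.0515 each), and Kdm3a and Mxi1 against WT (0.0718 and 0.0504), and called Aldoc, Ankrd37 and Tpi1 against WT (0.0392, 0.0279 and 0.0247). In experiment 2 it gave 18 and 9 for genotype, 20 and 5 in WT and 23 and 2 in deficient cells. The cause of these shifts was not tested. Depth limits Egln3 and Ankrd37, at under 3 CPM in most libraries.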
